A study of Mus musculus with 12 samples.

Results

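A set of 10 genes of the deleted interval was described in the mouse cortex, namely Rfc2, Lat2, Eln, Mettl27, Abhd11, Bud23, Dnajc30, Vps37d, Mlxipl and Tbl2. They form a set given by name within the deleted interval, and no expression value entered the rule. They are 10 of 19 deleted genes that were considered here from the expression table, which holds 17202 genes in all. The other 9 deleted genes served only for comparison. Abhd11os, a pseudogene on the strand opposite to Abhd11, is also in the table (mean count 44.3) but not among the 19. CD mice, a model of Williams–Beuren syndrome, carry a heterozygous deletion of chromosome 5 from Gtf2i to Fkbp6 and so keep 1 copy of each of these genes, while WT mice have both. Cortex RNA of 12 adult mice of the strain labelled C57Bl6 was sequenced, 3 in each of 4 groups. VEH-WT and VEH-CD mice received vehicle according to the study's methods and are called untreated in the labels. VERCUR-WT and VERCUR-CD mice drank curcumin, a phenol of turmeric, with verapamil, a blocker of voltage-gated calcium channels, at 60 and 10 mg/kg/day in the labels, from 8 weeks of age and for 1 month. The labels give 16 weeks as the age at the end, and the methods give a lower verapamil dose and an earlier end. According to the methods, the mice were male, were bred with a transgenic line that expresses YFP from the Thy1 promoter in neurons, and had vehicle or drug in their drinking water. The deletion is present in every cell from conception, and cortex was sequenced as bulk tissue, so fewer cells of a type and less RNA per cell cannot be told apart in any value below.

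A heterozygous deletion removes 1 of the copies a cell can transcribe. If the remaining copy is transcribed at its usual rate, the level falls to that of a single copy, which is -1 on the log2 scale, and a smaller fall would show at a value nearer to 0. The genes of this stretch belong to basic cell machinery. Rfc2 loads the DNA clamp in replication and repair, Bud23 methylates ribosomal RNA, Dnajc30 and Abhd11 act in mitochondria, Vps37d belongs to the ESCRT-I complex of endosomal sorting, Mlxipl encodes the glucose-responsive transcription factor ChREBP, and Tbl2 is a protein of the endoplasmic reticulum (ER) membrane. Mettl27 is a putative methyltransferase of little known function. Lat2 is an adaptor of immune cells and Eln encodes elastin, so these are not housekeeping genes.

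The values are normalized counts. Low values were whole multiples of 1 step per sample, so they were read as the reads counted on a gene divided by 1 factor per sample. By this reading, between 40300000 and 56500000 reads per mouse were counted on the genes of the table. Excitatory neurons of the cortex were well represented, with a mean normalized count of 98804 for their glutamate transporter Slc17a7, while the summed count of 4 choroid plexus markers was 103 to 169 per mouse. The summed count of markers of striatal neurons ranged from 4886 to 22329 over the mice and varied within every group, with group medians of 10875 in VEH-WT, 11085 in VEH-CD, 5716 in VERCUR-WT and 6170 in VERCUR-CD mice. VERCUR-CD 2 stood apart from the other mice of its group, with a chi-square per gene of 35.7 and 70.3 in its 2 pairs. The 10 other pairs within groups had 6.49 to 24.5. Values without this mouse are given beside some of the results.

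All 10 genes were lower in CD mice. For each of them the 6 CD mice lay below the 6 WT mice, which was so for 81 of the 17111 genes tested, 0.473%. The same held within VEH-treated mice, where 11.4% of all genes had the 3 CD mice below the 3 WT mice, and within co-treated mice, where 3.83% had. The ratio of the CD mean to the WT mean ran from 0.452 for Eln to 0.614 for Lat2. Over both treatments, 10 of 10 passed the test, which asked for an adjusted p under 0.05 (limma, Benjamini-Hochberg over all genes tested) and a rise or a drop of over 25%, where 0.321% of all genes passed in either direction and 0.234% were called lower. Their median log2 fold change was -0.98, with values from -1.13 to -0.69, beside -0.98 for the other 9 deleted genes and 0.00 for all genes tested. The 95% interval held -1 for 9 of the 10 genes, against 1.85% of all genes, and for Lat2 it lay above -1. No interval lay below -1. Without VERCUR-CD 2 the interval held -1 for 8 of 10 genes, both over both treatments and in VEH-treated mice. The share of all genes whose interval held -1 was not computed without this mouse.

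Within each treatment the same direction was seen in all 10. In VEH-treated mice, 7 of 10 genes passed the test, against 0.257% of all genes in either direction and 0.205% in the lower one, and the median was -0.91. In co-treated mice, 7 of 10 passed, against 0.146% in either direction and 0.123% in the lower one, and the median was -1.06. Lat2, Eln and Mlxipl, the genes of lowest level per length, were those that did not pass in either treatment. The interval held -1 for 9 of 10 genes in VEH-treated mice, against 4.52% of all genes, and for 10 of 10 in co-treated mice, against 4.59%. Without VERCUR-CD 2 the median in co-treated mice was -0.98 and 7 genes passed, as did 28 of all 17111 genes tested. The log2 fold change of Eln was then -1.48 (from -1.34). Abhd11, Vps37d and Dnajc30 each had -0.98 (from -1.07, -1.07 and -1.06).

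**Figure D1:**
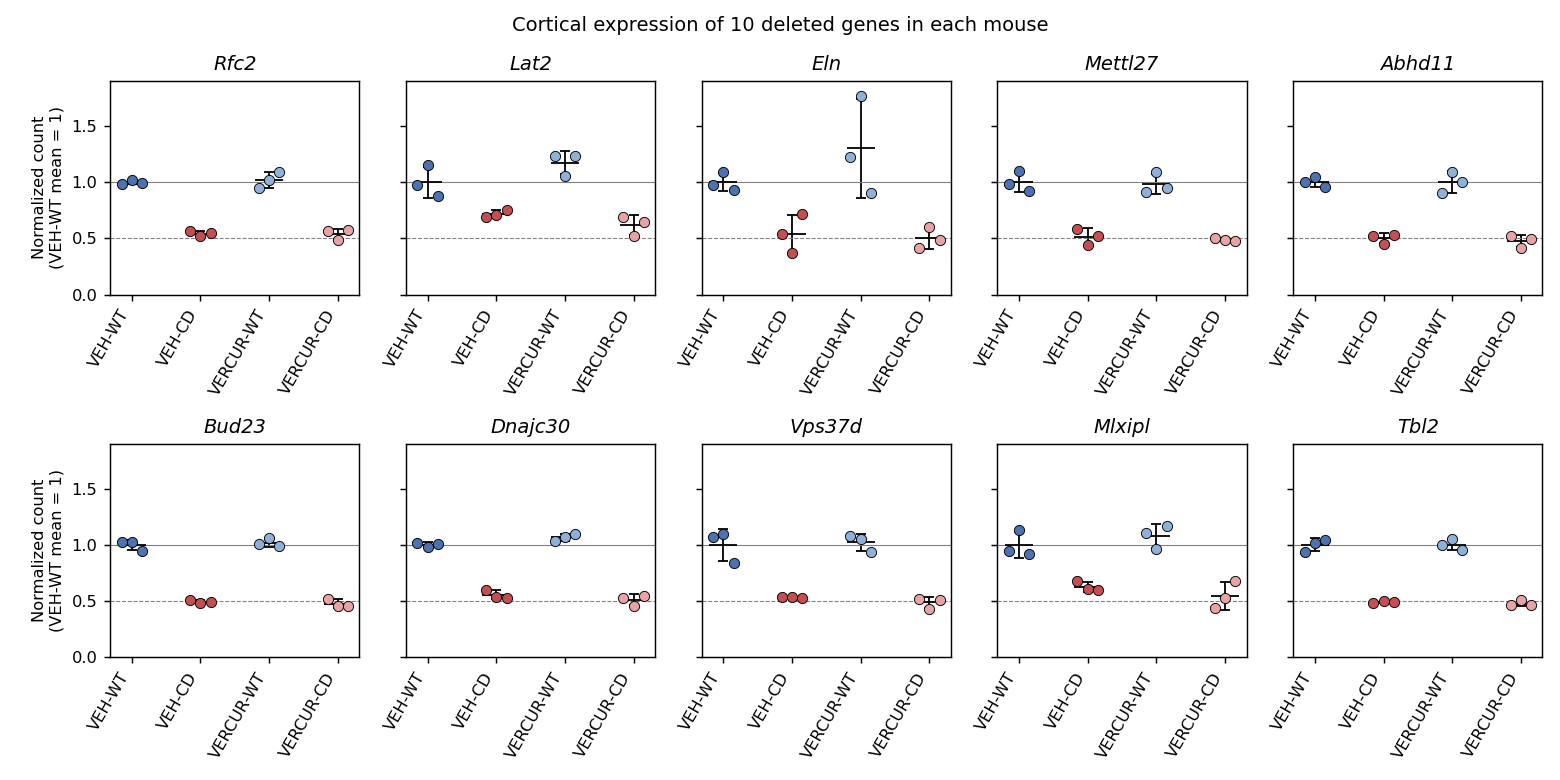
Normalized count of each of the 10 genes in each mouse, divided by the VEH-WT mean of that gene (y axis, without unit), for the 4 groups of 3 mice (points), with the mean and SD (black). The solid line marks 1 and the dashed line 0.5, and the CD mice lie below the WT mice in every panel, by the least in Lat2.

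Tbl2 had the smallest spread among CD mice. It is a WD40-repeat protein of the ER membrane that binds the stress kinase PERK, and lies at chr5:135149657-135165760 on the plus strand (GRCm38). In VEH-WT mice its normalized counts were 1202, 1309 and 1341, and in VEH-CD mice they were 616, 645 and 635. Co-treated mice had 1278, 1354 and 1227 (VERCUR-WT) and 596, 650.2 and 595 (VERCUR-CD). The genotypes were thus far apart, and within each genotype the vehicle and co-treated mice overlapped. The CV over the 6 CD mice was 3.89%, the smallest of the 10 genes. The log2 fold change of CD against WT over both treatments was -1.04 ± 0.05 (SE), with an adjusted p of 1.07e-07 (limma, Benjamini-Hochberg) and a 95% interval of -1.15 to -0.94. It was -1.02 in VEH-treated and -1.07 in co-treated mice.

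Vps37d, a subunit of ESCRT-I, which sorts ubiquitylated membrane proteins at endosomes, lies on the minus strand at chr5:135072900-135078266. Its counts were 1093, 1117 and 851 in VEH-WT mice and 547, 543 and 540.2 in VEH-CD mice. With co-treatment they were 1099, 1073 and 954 in WT and 529, 439 and 524 in CD mice. VEH-WT 3 was the lowest WT mouse and VERCUR-CD 2 the lowest CD mouse, while the 3 VEH-CD mice agreed within a CV of 0.653%. Over both treatments the log2 fold change was -0.98 ± 0.08 (SE; adjusted p = 1.85e-05, limma, Benjamini-Hochberg), with -0.90 in VEH-treated and -1.07 in co-treated mice.

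Mlxipl, or ChREBP, binds carbohydrate-response elements made of E-boxes together with its partner Mlx and drives genes of glycolysis and lipid synthesis, mainly in liver and fat. It lies at chr5:135089890-135138382 on the plus strand. The counts were low in cortex, with 82.9, 99.3 and 80.8 in VEH-WT and 59.4, 53.0 and 52.7 in VEH-CD mice. In VERCUR-WT mice they were 97.3, 84.3 and 103, and in VERCUR-CD mice 38.4, 45.9 and 59.7. No CD mouse reached a WT mouse, although the lowest value rested on 44 reads. Over both treatments Mlxipl fell by 0.82 ± 0.12 (SE) on the log2 scale (adjusted p = 0.0088, limma, Benjamini-Hochberg), with a 95% interval of -1.09 to -0.55. The log2 fold change was -0.66 in VEH-treated mice (adjusted p = 0.177) and -0.99 in co-treated mice (adjusted p = 0.0543), both by limma and Benjamini-Hochberg. The co-treated value was -1.15 (adjusted p = 0.0233) without VERCUR-CD 3 and -0.96 (adjusted p = 0.183) without VERCUR-CD 2, in the same limma test.

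The deletion takes the promoter of each gene along with its body, so the start regions of the neighbours Vps37d, Mlxipl and Tbl2 are shown as the sequence that is present once in CD mice. They are windows of 300 bases around annotated starts (RefSeq, GRCm38.p6), 5′ to 3′ on the strand of the gene, at chr5:135078217-135078516 (minus), chr5:135089640-135089939 (plus, the more upstream of 2 Mlxipl starts) and chr5:135149436-135149735 (plus). Capitals mark the GC box GGGCGG on either strand, where CCGCCC is its reverse, and the E-box CACGTG, which reads the same on both strands. These marks do not overlap.
Vps37d: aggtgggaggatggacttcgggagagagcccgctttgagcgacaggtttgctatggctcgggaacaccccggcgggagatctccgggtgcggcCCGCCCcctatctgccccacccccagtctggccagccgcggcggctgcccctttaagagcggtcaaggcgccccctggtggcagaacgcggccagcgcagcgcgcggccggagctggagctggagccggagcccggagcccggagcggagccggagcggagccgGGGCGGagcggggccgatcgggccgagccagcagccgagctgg
Mlxipl: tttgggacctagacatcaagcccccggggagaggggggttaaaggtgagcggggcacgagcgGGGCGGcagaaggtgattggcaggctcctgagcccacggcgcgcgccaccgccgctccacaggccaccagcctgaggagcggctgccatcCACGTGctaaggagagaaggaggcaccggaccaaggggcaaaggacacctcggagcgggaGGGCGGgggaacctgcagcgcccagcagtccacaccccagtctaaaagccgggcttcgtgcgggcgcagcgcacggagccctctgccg
Tbl2: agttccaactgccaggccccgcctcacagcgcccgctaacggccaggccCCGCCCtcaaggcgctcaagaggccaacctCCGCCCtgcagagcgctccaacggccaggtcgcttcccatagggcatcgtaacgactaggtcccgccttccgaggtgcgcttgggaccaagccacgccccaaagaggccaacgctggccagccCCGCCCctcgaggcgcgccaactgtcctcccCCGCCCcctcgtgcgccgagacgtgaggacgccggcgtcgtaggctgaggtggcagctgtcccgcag
Tbl2 had 4 GC boxes and Vps37d 2. The Mlxipl window held 2 GC boxes and 1 E-box, at base 153 of the window. Among 32851 RefSeq windows of this length, 35.7% held a GC box and 7.15% this E-box. G and C made up 74.3%, 69.3% and 70.7% of the Vps37d, Mlxipl and Tbl2 windows, against a median of 52.7% over all windows. The table held 9 windows for 6 of the 10 genes, and Rfc2, Lat2, Eln and Dnajc30 had none. The second Mlxipl window had neither motif, and those of Mettl27 and Bud23 held no GC box and no E-box. Of 3 Abhd11 windows, 1 held 1 GC box. These matches describe letters, not sites of binding.

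Bud23 and Dnajc30 stand head to head and share their first bases on opposite strands. Bud23 (chr5:135052957-135064959, minus) is the methyltransferase that makes 7-methylguanosine in the RNA of the small ribosomal subunit and needs the cofactor Trmt112. Dnajc30 (chr5:135064202-135065862, plus) is a J-domain protein of the inner mitochondrial membrane that has been tied to ATP synthase and to the turnover of complex I. Their overlap, chr5:135064202-135064959, covers 758 bases. It holds 436 bases that are exon in both, which are 12.9% of the exon bases of Bud23 and 26.2% of those of Dnajc30. Most of the shared exon codes in Dnajc30 (384 coding bases) and only 20 bases code in Bud23. The annotated Bud23 promoter window lies wholly in the untranslated part of the Dnajc30 exon. Whether counting used the strand is not given in the sources used here, so reads in this stretch cannot be assigned to either gene with certainty.

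Bud23 counts were 968, 966 and 893 in VEH-WT mice and 482, 451 and 465 in VEH-CD mice. Co-treated WT mice had 948, 1003 and 936, and co-treated CD mice had 492, 426 and 427. The CD mice of both treatments overlapped, below every WT mouse. The log2 fold change over both treatments was -1.06 ± 0.05 (SE; adjusted p = 2.36e-07, limma, Benjamini-Hochberg), with -1.01 in VEH-treated and -1.10 in co-treated mice.

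Dnajc30 had the highest counts of the 10 genes, with 1849, 1772 and 1821 in VEH-WT and 1090.0, 977 and 962 in VEH-CD mice. In VERCUR-WT mice the counts were 1869, 1933 and 1997, and in VERCUR-CD mice 961, 835 and 995. All 3 VERCUR-WT mice lay above the 3 VEH-WT mice, and the CD mice of both treatments overlapped. Dnajc30 fell by 0.95 ± 0.05 (SE) on the log2 scale over both treatments (adjusted p = 5.29e-07, limma, Benjamini-Hochberg), by 0.85 in VEH-treated and by 1.06 in co-treated mice. Bud23 stood at 46.9 to 54.5% of Dnajc30 in WT mice (median 51.3%) and at 42.9 to 51.2% in CD mice (median 47.2%), so the ranges of this ratio overlapped. Their summed count was 2826 ± 93.4 (SD, n = 6) in WT and 1427 ± 99.4 in CD mice. This sum is independent of which gene took the shared reads only if each such read was counted once, which is not known.

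Rfc2 and Lat2 meet tail to tail. Rfc2 (chr5:134581366-134601805, plus) is a small subunit of replication factor C, which loads the sliding clamp PCNA onto DNA. Lat2 (chr5:134600022-134615025, minus), also called NTAL or LAB, is a membrane adaptor phosphorylated by Syk-family kinases in B cells, mast cells and other leukocytes. They overlap at chr5:134600022-134601805, 1784 bases with 952 bases of exon in both and no coding base of either. The shared bases are 15.1% of the exon bases of Rfc2 and 36.3% of those of Lat2, whose count was by far the lower.

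Rfc2 counts in VEH-treated mice were 1132, 1169.6 and 1138 for WT and 643, 594 and 628 for CD. In co-treated mice they were 1086, 1173 and 1248 for WT and 646, 558 and 655 for CD. The groups of a genotype overlapped and the genotypes did not. The log2 fold change over both treatments was -0.90 ± 0.06 (SE; adjusted p = 1.61e-06, limma, Benjamini-Hochberg), with a 95% interval of -1.02 to -0.78. It was -0.88 in VEH-treated and -0.92 in co-treated mice. Without VERCUR-CD 2 the co-treated value of Rfc2 was -0.84 ± 0.07 (SE).

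Lat2 showed the smallest fall of the 10 over both treatments and in VEH-treated mice, while in co-treated mice Rfc2 and Lat2 had like values of -0.92. Its counts were 74.0, 87.8 and 66.9 in VEH-WT mice and 52.6, 53.9 and 57.5 in VEH-CD mice. VERCUR-WT mice had 93.8, 80.6 and 94.0, and VERCUR-CD mice had 52.4, 39.6 and 49.1. The 3 VERCUR-CD mice lay below the 3 VEH-CD mice, while VEH-WT and VERCUR-WT mice overlapped. Over both treatments the log2 fold change was -0.69 ± 0.11 (SE; adjusted p = 0.0169, limma, Benjamini-Hochberg), and its 95% interval of -0.94 to -0.45 lay above -1. In VEH-treated mice it was -0.46 with an interval of -0.81 to -0.12 (adjusted p = 0.285) and in co-treated mice -0.92 with an interval of -1.27 to -0.57 (adjusted p = 0.0508), again by limma and Benjamini-Hochberg. The call over both treatments was lost without VEH-WT 2, VEH-CD 1, VERCUR-WT 1 or VERCUR-WT 3 (adjusted p of 0.0554, 0.0624, 0.0617 and 0.0557, limma, Benjamini-Hochberg), and without VEH-WT 2 the co-treated comparison passed (adjusted p = 0.0490, limma, Benjamini-Hochberg). Without VERCUR-CD 2 the co-treated value of Lat2 was -0.80 (adjusted p = 0.183, limma, Benjamini-Hochberg).

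As a share of Rfc2, Lat2 was 5.88 to 8.63% in WT mice (median 7.18%) and 7.10 to 9.16% in CD mice (median 8.14%), with overlapping ranges. The summed count of the microglial marker list, cells in which such adaptors can be expressed, was 18252 to 21941 in WT and 19581 to 23441 in CD mice. The part of the shared reads and of these cells in the Lat2 value was not tested.

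**Figure D2:**
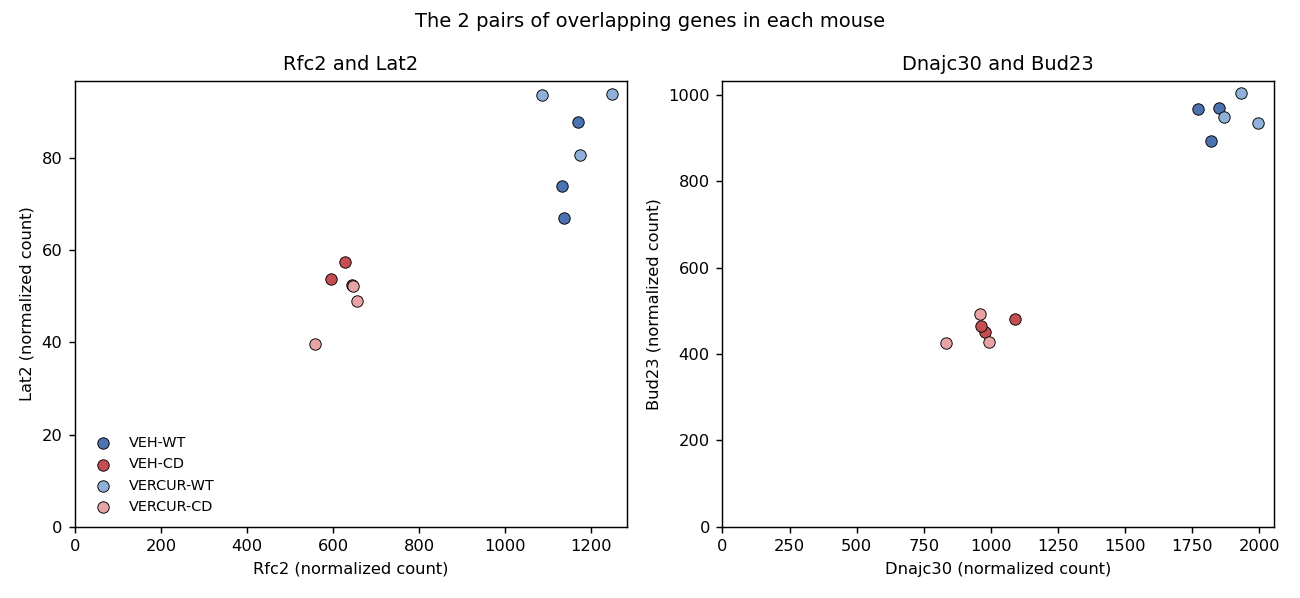
Normalized counts of the overlapping pairs in each of the 12 mice, Lat2 against Rfc2 (left) and Bud23 against Dnajc30 (right), with both axes from 0 and 1 point per mouse. The CD mice form a cluster below the WT mice in both panels, with a Lat2 share of Rfc2 of 7.10 to 9.16% against 5.88 to 8.63% in WT mice.

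Abhd11 encodes a mitochondrial hydrolase that protects the lipoylated E2 subunit of the 2-oxoglutarate dehydrogenase complex, an enzyme of the citric acid cycle. It lies at chr5:135009152-135012175 on the plus strand, where a transcript model of the minus strand, Gm43372, shares 40.2% of its exon bases and was not in the table. Its counts in VEH-WT mice were 884, 926 and 851, and those in VEH-CD mice 464, 399 and 471. For VERCUR-WT mice they were 802, 971 and 889 and for VERCUR-CD mice 462, 371 and 438. The lowest WT mouse was thus far above the highest CD mouse. The log2 fold change over both treatments was -1.03 ± 0.07 (SE; adjusted p = 6.38e-06, limma, Benjamini-Hochberg), with -0.998 in VEH-treated and -1.07 in co-treated mice.

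Mettl27 (chr5:134932368-134942637, plus), the putative methyltransferase, had counts of 381, 427 and 357 in VEH-WT mice. VEH-CD mice had 227, 169.5 and 201. With co-treatment the counts were 355, 422 and 370.0 in WT and 196, 189.8 and 187 in CD mice. WT and CD mice did not overlap, and VERCUR-CD mice were close together with a CV of 2.57%. The log2 fold change over both treatments was -0.98 ± 0.08 (SE; adjusted p = 3.85e-05, limma, Benjamini-Hochberg), with -0.97 in VEH-treated and -0.99 in co-treated mice.

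Eln varied most. Elastin is the core of elastic fibres and is made by smooth muscle cells of arteries and by fibroblasts. The gene lies at chr5:134702593-134747323 on the minus strand. Its counts were 215, 240.2 and 205 in VEH-WT mice and 118, 82.1 and 157 in VEH-CD mice. In VERCUR-WT mice they were 269, 389.9 and 199, and in VERCUR-CD mice 91.6, 132 and 106. VERCUR-WT 2 was far above the other WT mice and VEH-CD 3 was the highest CD mouse, still below every WT mouse. Over both treatments the log2 fold change was -1.13 ± 0.18 (SE; adjusted p = 0.0135, limma, Benjamini-Hochberg), with a 95% interval of -1.52 to -0.74. The call was lost without VEH-WT 2 (adjusted p = 0.0525, limma, Benjamini-Hochberg) or VERCUR-CD 3 (adjusted p = 0.0519). The value was -0.93 in VEH-treated mice (adjusted p = 0.192) and -1.34 in co-treated mice (adjusted p = 0.0809), by limma and Benjamini-Hochberg. Without VERCUR-WT 2 the co-treated value was -1.09 (adjusted p = 0.429) and without VERCUR-WT 3 it was -1.57 (adjusted p = 0.0310) in the same limma test.

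Summed markers of vascular smooth muscle and pericytes ranged from 4537 to 6625 over the 12 mice, and VERCUR-WT 2 had 5524. The genes of this list differed in that mouse. Of the 12 mice it was the highest for Acta2 (763), Myh11 (663), Tagln (382) and Cnn1 (48.2). It was the lowest for Rgs5 (2520), the largest part of the sum, and had 1148 for Pdgfrb. The sum for meningeal fibroblasts ranged from 1490 to 2509, with 2208 in VERCUR-WT 2. The part of vessels and meninges in the Eln values was not tested.

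**Figure D3:**
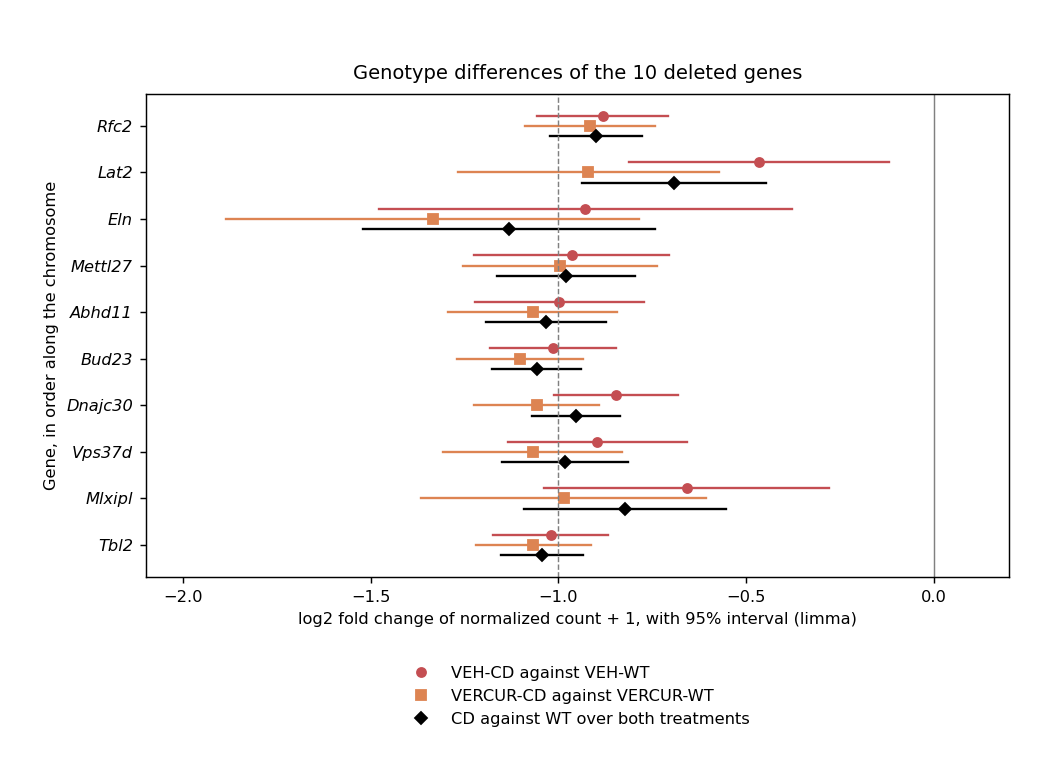
Log2 fold changes of the 10 genes, in order along chromosome 5, with 95% intervals from limma, for VEH-CD against VEH-WT (circles), VERCUR-CD against VERCUR-WT (squares) and CD against WT over both treatments (diamonds). The solid line marks 0 and the dashed line -1, which 9 of the 10 intervals over both treatments hold.

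Levels differed far more between genes than between genotypes. Per kb of exon, the mean normalized count in WT mice was 1128 for Dnajc30, 668 for Vps37d, 408 for Abhd11, 281 for Bud23, 184 for Rfc2, 164 for Tbl2, 115 for Mettl27, 31.6 for Lat2, 31.3 for Eln and 16.5 for Mlxipl. Among neighbours in this order, the ranges over the 6 WT mice overlapped only for Rfc2 with Tbl2 and for Lat2 with Eln. In CD mice the level per kb was 584 for Dnajc30 and 9.30 for Mlxipl. Exon length is the union over all annotated transcripts, so a gene with long minor isoforms has an understated level. The 3 genes of lowest level, Lat2, Eln and Mlxipl, also had the largest spread over the 6 WT mice after scaling to their means, with CVs of 13.3%, 28.4% and 10.5%, although Vps37d had a CV of 10.3%. The values of Lat2 and Mlxipl rested on as few as 44 reads in a mouse, and those of Rfc2 on at least 524.

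**Figure D4:**
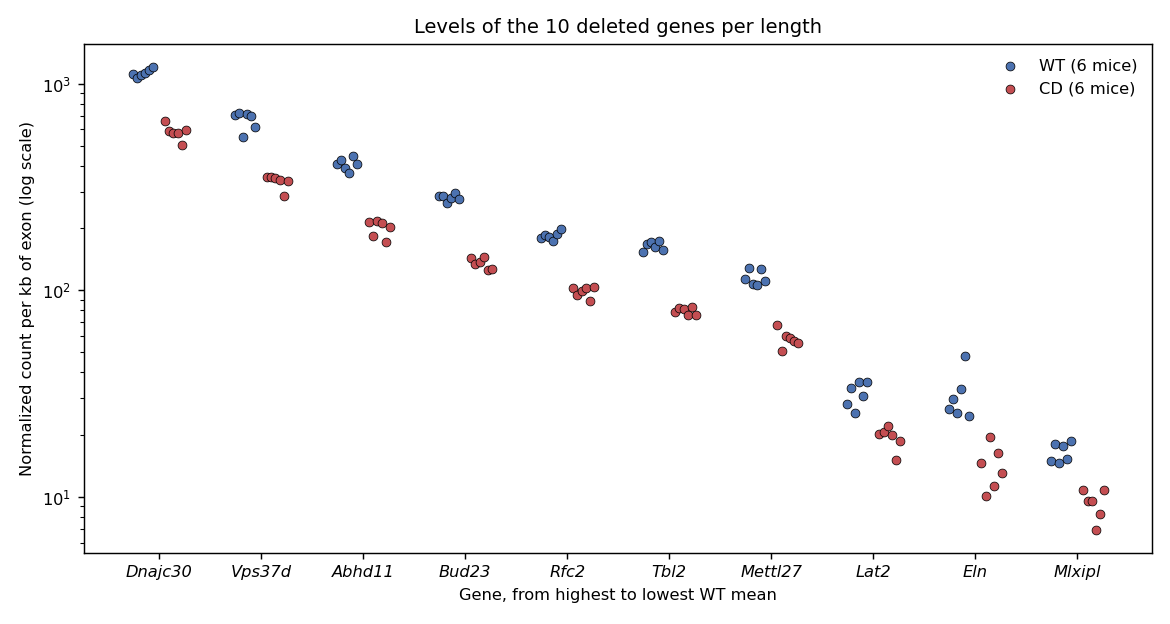
Normalized count per kb of exon (log scale) of the 10 genes in the 6 WT and 6 CD mice (1 point per mouse), ordered by the WT mean. Dnajc30 is highest with a WT mean of 1128 and Mlxipl lowest with 16.5, and the CD points lie below the WT points for each gene.

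The next question was whether co-treatment moved these genes. In CD mice it did not by this test, since 0 of 10 genes passed for VERCUR-CD against VEH-CD in limma with Benjamini-Hochberg adjustment, where 0% of all genes passed. Without adjustment, 0 of the 10 had a p under 0.05, against 605 of all 17111 genes. The ranges of the groups overlapped for 8 of 10, with VERCUR-CD lower for Lat2 and Vps37d, while 8.34% of all genes were apart in either direction. All 10 log2 fold changes were below 0, from -0.22 for Lat2 and for Mlxipl to -0.01 for Rfc2, with a median of -0.08 beside 0.00 for all genes. The other 9 deleted genes had values below 0 too, with a median of -0.08. VERCUR-CD 2 was the lowest of the 6 CD mice for 6 of the 10 genes, and without it 8 of 10 values were below 0. The value was then 0.07 for Rfc2, 0.02 for Abhd11, -0.11 for Lat2 (from -0.22), -0.05 for Vps37d (from -0.13), -0.04 for Dnajc30 (from -0.12), -0.02 for Bud23 (from -0.06), -0.09 for Tbl2 (from -0.04) and -0.22 for Eln (from -0.08). The markers of striatal neurons had a median log2 fold change of -1.28 in this comparison and of -0.94 in VERCUR-WT against VEH-WT, with 0 of 4 called in either (limma, Benjamini-Hochberg), and their part in the values of the 10 genes was not tested. The 95% interval of the difference was narrowest for Tbl2, from -0.20 to 0.11, and widest for Eln, from -0.63 to 0.47.

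In WT mice co-treatment likewise gave 0 of 10 calls (limma, Benjamini-Hochberg), against 0% of all genes. Of the 10, 0 had an unadjusted p under 0.05, against 893 of all genes. The log2 fold changes of the 10 ran from -0.02 for Mettl27 to 0.33 for Eln, with a median of 0.03. Without VERCUR-WT 2 the Eln value was 0.08. Dnajc30 alone had ranges apart, against 9.72% of all genes. Its log2 fold change was 0.09, with an interval of -0.08 to 0.26. The intervals for Lat2 and Mlxipl were -0.11 to 0.58 and -0.27 to 0.49.

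The genotype difference was also compared between treatments. The interaction of genotype and treatment called 0 of 10 genes in limma at an adjusted p under 0.05, as it did 0% of all genes, and none of the 10 had an unadjusted p under 0.05, against 1035 of all genes. The smallest adjusted p (limma, Benjamini-Hochberg) was 0.816, shared by Lat2 and Dnajc30. The interaction of Lat2 was -0.46 on the log2 scale with an interval of -0.95 to 0.04. Dnajc30 had -0.21, with an interval of -0.45 to 0.02. All 10 point values were below 0, with a median of -0.13, beside 48.5% below 0 and a median of 0.01 for all genes. The other 9 deleted genes were all below 0 too, with a median of -0.08. Without VERCUR-CD 2, 8 of 10 were below 0, and the interaction was -0.14 for Dnajc30 and -0.34 for Lat2. For Eln it was -0.41, and -0.16 without VERCUR-WT 2. These comparisons share mice and so are not independent of those within each genotype.

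Genes that work with the 10 were examined in lists drawn up by function. Of 107 genes listed, 101 were in the table and tested. In limma with Benjamini-Hochberg adjustment 0 passed in VEH-CD against VEH-WT, in VERCUR-CD against VERCUR-WT, over both treatments, and in either treatment comparison. At an unadjusted p under 0.05 there were 11, 2, 10, 1 and 3 of them in these comparisons, or 10.9%, 1.98%, 9.90%, 0.990% and 2.97% of the 101, beside 11.8%, 4.10%, 9.64%, 3.54% and 5.22% of all genes. Over both treatments the median log2 fold change of the 101 was -0.02, from -0.35 for Mfap4 to 0.22 for Mfap2, beside 0.00 for all genes tested and -0.98 for the 10 deleted genes. The smallest adjusted p was 0.171, for Hspa5.

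The direct partners of the nuclear and ribosomal genes stayed near 0. Of the clamp loaders, Rfc1, the large subunit, had a log2 fold change over both treatments of 0.10 ± 0.04 (SE), with normalized counts of 1693 ± 27.0 (SD, n = 3) in VEH-WT and 1816 ± 32.1 in VEH-CD mice. The small subunits Rfc3, Rfc4 and Rfc5 had 0.17, 0.08 and 0.09, and Chtf8, of an alternative loader, had the lowest value of this list at -0.07. None passed the test, and 7 of 9 values of the list were above 0, with a median of 0.08, while 50.9% of all genes were below 0. Trmt112, the cofactor of Bud23, had 0.06 ± 0.05 (SE). Of the other methyltransferases that use Trmt112, Alkbh8 had -0.03 and Thumpd2 0.14.

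Among mitochondrial partners, Ogdh, the first enzyme of the complex that Abhd11 protects, had a log2 fold change of -0.01 ± 0.03 (SE). Lias, the lipoic acid synthase, had 0.14 and Lipt1, a lipoyl transferase, -0.04, as the ends of their list of 8 genes. In the list of 10 mitochondrial chaperones, Grpel2, a nucleotide exchange factor, had -0.09 and Hscb, a J-protein of iron-sulfur cluster assembly, 0.13. Neither list had a gene that passed the test.

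ESCRT-I subunits that assemble with Vps37 proteins were as even. Tsg101 had a log2 fold change of 0.05 and Vps28 of -0.02. The paralogs of Vps37d, namely Vps37a, Vps37b and Vps37c, had -0.06, -0.03 and -0.11. Vps37c was lowest of the list with 1049 ± 11.0 (SD, n = 3) in VEH-WT and 932 ± 30.5 in VEH-CD mice (adjusted p over both treatments 0.398, limma, Benjamini-Hochberg).

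Around Mlxipl, its dimer partner Mlx had -0.05 ± 0.05 (SE) and its paralog Mlxip, which also pairs with Mlx, -0.21 ± 0.09 (adjusted p = 0.466, limma, Benjamini-Hochberg), while Max had 0.00. Of the Mlx network, 8 of 9 values were below 0 over both treatments, where 50.9% of all genes were, with a median of -0.05. That count was 9 of 9 in VEH-treated and 3 of 9 in co-treated mice, where 50.7% and 48.4% of all genes were below 0. It was also 9 of 9 in VERCUR-WT against VEH-WT, where 50.5% of all genes were, so VEH-WT was the high group in both. Of the 9 genes, 0 passed in each of these comparisons. In the same order, 3, 0 and 1 of the 9 had an unadjusted p under 0.05 (limma), beside 11.8%, 4.10% and 5.22% of all genes. Txnip, a strongly glucose-responsive target, had -0.08 ± 0.10 (SE), with a count of 1021 ± 95.7 (SD, n = 3) in VEH-WT and 842 ± 209 in VEH-CD mice. In co-treated mice the Txnip count was 854 ± 52.7 in WT and 950.3 ± 71.1 in CD mice, and its interaction was 0.46 on the log2 scale (adjusted p = 0.816, limma, Benjamini-Hochberg). Its relative Arrdc4 had 0.04, the highest of the 14 carbohydrate-response targets, and the fatty acid elongase Elovl6 had -0.20, the lowest. Their median was -0.07.

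In the PERK and ATF4 list, chosen for Tbl2, the kinase gene Eif2ak3 (PERK) had 0.07 ± 0.05 (SE), the highest of 12. The ER chaperone Hspa5 had -0.35 ± 0.09, with counts of 15432 ± 2175 (SD, n = 3) in VEH-WT, 11551 ± 1647 in VEH-CD, 13523 ± 1740 in VERCUR-WT and 11051 ± 695 in VERCUR-CD mice (adjusted p = 0.171, limma, Benjamini-Hochberg). For elastic fibres, the microfibril genes Mfap4 and Mfap2 had -0.35 ± 0.11 and 0.22 ± 0.14 (SE) at the ends of 13 values. Of the adaptors and kinases around Lat2, the ubiquitin ligase Cbl had -0.19 and the kinase Btk 0.08 at the ends of 11 values.

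**Figure D5:**
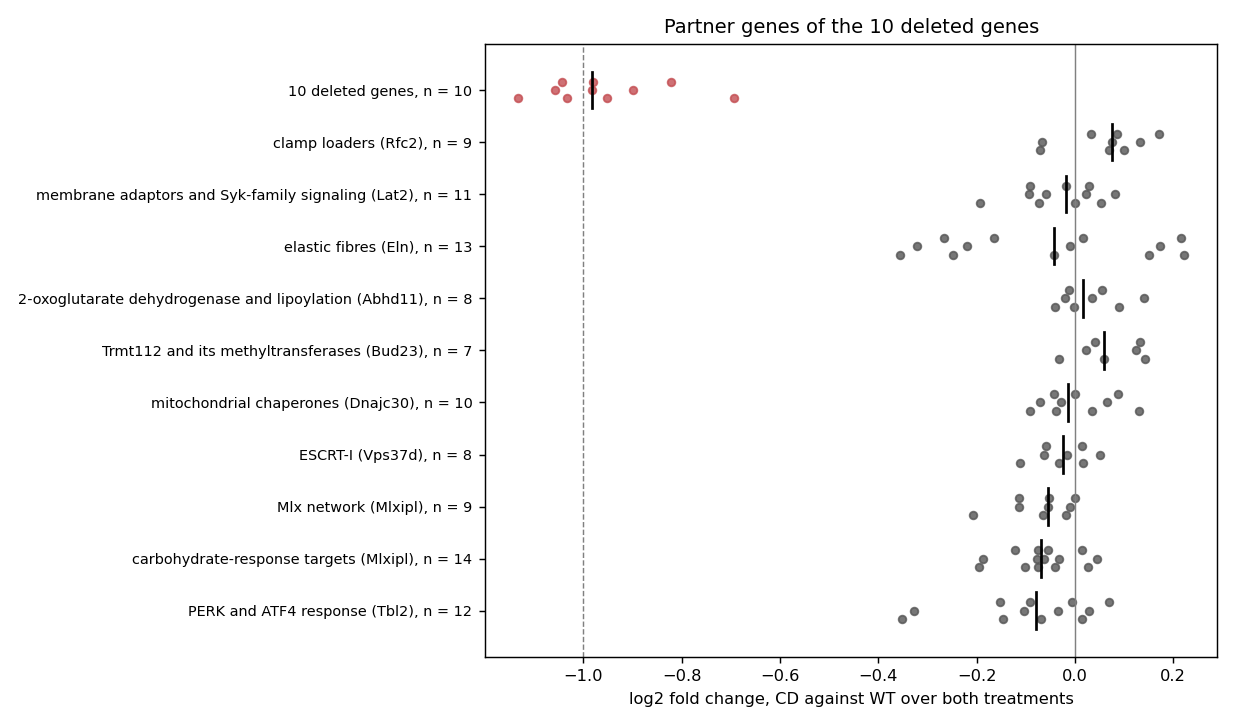
Log2 fold change of CD against WT over both treatments (x axis) for the 10 deleted genes (red) and for each list of partner genes (grey, 1 point per gene), with the median as a bar. The deleted genes lie around the dashed line at -1, with a median of -0.98, and the 101 partner genes between -0.35 and 0.22.

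Genes outside the deletion that varied most like each of the 10 were sought among 14248 genes (mean count 50 or more) by Pearson's r of the deviations from group means over the 12 mice. Such a search over many genes and few mice returns high values in any case, and the libraries share their normalization, so the pairs are a description. Eln was closest to Hey2, a Notch-responsive factor of vascular smooth muscle (r = 0.96), and Lmod1, an actin-binding protein of smooth muscle (r = 0.95). Mettl27 was closest to Smtn, or smoothelin, also of smooth muscle (0.95), and to Tmem81 (0.92). For Abhd11 they were Gemin7 and Polr2k (0.99 and 0.98), for Bud23 Dbnl and Eif2b5 (0.96 and 0.92), for Rfc2 Bckdk and Sil1 (0.97 and 0.96) and for Dnajc30 Psmg4 and Qsox1 (0.95 and 0.95). Vps37d was close to Vars2 (0.97), Tbl2 to Efna5 and Klhl29 (0.98 and 0.97), Lat2 to Ak8 and Map3k14 (0.98 and 0.98) and Mlxipl to Eef2k and Ccdc159 (0.89 and 0.89). None of these was a gene of the partner lists.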

How the data were processed

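Cortex RNA of 12 mice was sequenced in paired-end mode, and the labels gave the group of each mouse. The submitters' processing notes name FastQC, STAR 2.5.3a and the build GRCm38 for the alignment, and the authors deposited normalized counts per gene and mouse. The counting program, the annotation, the use of strand and the normalization are not given in the sources used here. The deposited values are treated as another unit than raw counts, so no count test was run. Low values were whole multiples of 1 step per sample (100% of them within 0.1 read), from which the number of reads was inferred for all values. Whether 1 step is a read or a read pair is not known. A lower number of reads gives less precise values. The authors also deposited tables of relative expression of selected genes, which were not used.

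Values were put on the scale log2(normalized count + 1), a pseudocount of 1, and limma 3.58.1 (R 4.3.3) estimated 4 group means with an intensity trend for the 17111 genes whose mean reached 10. The pseudocount understates the change of low genes. All 10 genes passed this filter. The tests were two-sided, with Benjamini-Hochberg adjustment over all genes tested in each comparison, and a call needed an adjusted p under 0.05 as well as a rise or a drop of over 25% (for the interaction, only the adjusted p). With 3 mice a group, the spread is that between mice. The fit was tested on simulated data.

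The 10 genes and the lists of partner genes and markers were chosen with earlier results of these data known. All 10 are named, with direct partners, the ends of each list and, for each of the 10, the 2 genes of most similar deviations, of which 1 is not reported here. Positions are from GENCODE M21 (GRCm38), in which 17181 of 17202 genes were found, and sequences from RefSeq. Alternatives were pseudocounts of 0.1 and 5, other filters, quantile normalization, median centring, no trend, removal of single values from groups with a CV of 20% or more, only the groups compared, the replicate number as a block, the adjusted p alone, and leaving out each mouse. Figures were drawn with matplotlib in Python.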

Additional observations from a re-analysis of the deposited data

Results flagged for a closer look

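Of 20 sets of 6 mice, 1 per gene and genotype, 2 held a mouse far from the others, and chance gives about 1 in 20. VERCUR-WT 2 had an Eln count of 389.9, where the next WT mouse had 269, and this gap was 0.632 of the range of the 6 WT mice (above Dixon's 95% critical value). VERCUR-CD 2 had a Vps37d count of 439, where the next CD mouse had 524, a gap of 0.781 of the range of the 6 CD mice. The causes were not tested.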

How the results depend on the processing

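Of 17 counts and medians, 172 of 175 values under other settings stayed within 1.5 times the reported count or within the spread between mice, and so did 202 of 204 values without 1 mouse. The exceptions among settings came from removing single values from groups with a CV of at least 20%. It called 1 partner gene instead of 0 in VEH-CD against VEH-WT (Hspa5), in VERCUR-CD against VERCUR-WT (Mfap4) and in VERCUR-CD against VEH-CD (Pag1, named after its value was seen). It also raised the calls over all genes from 44 to 972, from 25 to 448 and from 55 to 837 in VEH-treated mice, in co-treated mice and over both treatments, and from 0 to 241, 649 and 492 in VERCUR-CD against VEH-CD, VERCUR-WT against VEH-WT and the interaction. This setting takes out the farthest values and so narrows the spread by construction. Leaving out 1 mouse moved the median of the 10 genes between -0.98 and -0.85 in VEH-treated mice (the former without VEH-WT 3) and between -1.08 and -0.98 in co-treated mice (the latter without VERCUR-CD 2), and the calls over both treatments between 8 and 10. Over all genes the calls over both treatments ranged from 38 (without VERCUR-CD 3) to 63 (without VERCUR-CD 2). In VEH-treated mice 7 of the 10 genes passed in every such fit. The calls over all genes there ranged from 24 (without VEH-WT 2) to 71 (without VERCUR-CD 2). The comparison of VERCUR-CD with VEH-CD then had up to 2 calls and that of VERCUR-WT with VEH-WT up to 3, none of them among the 10 genes. Without an intensity trend there were 30 calls over all genes in each genotype comparison within a treatment, and 7 of 10 and 9 of 10 genes passed in VEH-treated and co-treated mice.

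Of 580 values of single genes under other settings 570 kept their direction and side of the threshold, 9 newly passed and 1 turned. The interaction of Eln was 0.0661 with single values removed. Without 1 mouse, 710 of 720 were kept, and Vps37d in VERCUR-WT against VEH-WT ranged from -0.0866 (without VEH-WT 3) to 0.109. The causes were not tested. The only groups compared alternative was not run over both treatments or for the interaction, which need all groups.

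Same-numbered mice of different groups did not deviate together (r of -0.35 to 0.27 over pairs, and 1 of 12 mice matched best with its own number). The values thus showed no pairing by number, which with so few mice cannot show that there was none. With the replicate number as a block, 7, 7 and 10 of the 10 genes passed in VEH-treated mice, in co-treated mice and over both treatments, with medians of -0.91, -1.06 and -0.98, the interval held -1 for 9, 10 and 9, and 0 of the 10 and 0 partner genes passed in the treatment comparisons. Calls over all genes were then 40, 26 and 49. Low counts limit Lat2 and Mlxipl most, at 44 reads in the lowest mouse.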

Other observations

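All 19 deleted genes considered, the 10 described and the other 9, had log2 fold changes below 0 in VERCUR-CD against VEH-CD, where 49.2% of all genes tested did. In VERCUR-WT against VEH-WT, 8 of 19 had values below 0, where 50.5% did. Without VERCUR-CD 2, 17 of 19 were below 0 in VERCUR-CD against VEH-CD. None of the 19 passed the test (limma, Benjamini-Hochberg), 1 of them, Clip2 (-0.18, named after its value was seen), had an unadjusted p under 0.05, and all values share the same 6 CD mice, so they are not independent of each other. Scaled to the VEH-WT means, the median of the 10 genes was 0.549, 0.510 and 0.530 in the VEH-CD mice and 0.519, 0.487 and 0.503 in the VERCUR-CD mice, so the ranges overlapped. The median of the other 9 genes was 0.506, 0.510 and 0.502 in VEH-CD and 0.490, 0.463 and 0.492 in VERCUR-CD mice, with no overlap. Of all single genes, 8.34% had these groups apart in either direction. That share is for single genes, and none was computed for medians of 9 genes. In WT mice the median of the other 9 genes was 1.008, 1.015 and 0.984 with vehicle. It was 0.965, 0.987 and 0.966 with co-treatment, so it tended lower there too, with overlap.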
